A study of Mus musculus with 12 samples.

Results

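The 35 genes described here make cholesterol and fatty acids, or control and dispose of sterols, and were taken as a list of symbols matched to the rows of the count table. All 35 were found among the 55401 genes of the table, and 34 passed the expression filter together with the others that make up the 14079 tested genes. The missing one, Nr1h3, is described below by its counts. RNA was sequenced from Sp37A3 cells, an immature dendritic cell line from mouse spleen that is kept in GM-CSF and M-CSF. CtrV cells carry an empty lentiviral vector. EKO cells carry the vector with a guide against Siglece, the gene of the inhibitory sialic acid receptor Siglec-E, and according to the methods several sorted clones were pooled. Both lines were stimulated with LPS and processed for 24 hours, either unpulsed or after a pulse of ovalbumin (OVA) protein, with 3 libraries in each of the 4 groups. LPS was thus common to every group, and no library shows the cells without it.

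Cholesterol is built from acetyl-CoA through mevalonate, farnesyl diphosphate, squalene and lanosterol, and fatty acids are built from the same acetyl-CoA by carboxylation and chain extension. When sterol in the endoplasmic reticulum is low, the escort protein Scap carries the membrane-bound SREBP factors to the Golgi, where they are cut and released to switch on the genes of both pathways, and Insig proteins hold them back when sterol is plentiful. Oxidised sterols act through the LXR nuclear receptors, which switch on export of cholesterol and degradation of lipoprotein receptors. In macrophages and dendritic cells these programs are known to change with Toll-like receptor stimulation.

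SREBP factors bind sterol regulatory elements together with NF-Y, which binds CCAAT boxes, and Sp1, which binds GC boxes. The stretch before the annotated start (RefSeq, GRCm38.p6) is shown for Hmgcs1, the one member with an exact sterol regulatory element, for Lss, Ebp, Srebf2 and Fasn, which were lower in EKO-labelled cells, and for Abca1, which was higher. Each is written 5′ to 3′ on the gene's own strand and ends at the last base before the start. Capitals mark TCACNCCAC and CCAAT, which appears as ATTGG where it lies on the other strand. Abca1 has neither.
Hmgcs1 (chr13:119690101-119690350, plus strand): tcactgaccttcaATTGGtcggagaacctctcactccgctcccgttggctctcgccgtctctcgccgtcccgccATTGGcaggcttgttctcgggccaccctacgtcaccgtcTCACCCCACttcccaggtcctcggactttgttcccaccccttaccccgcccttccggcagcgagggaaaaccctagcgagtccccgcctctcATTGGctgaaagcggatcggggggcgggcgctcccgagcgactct
Lss (chr10:76531523-76531604, plus strand): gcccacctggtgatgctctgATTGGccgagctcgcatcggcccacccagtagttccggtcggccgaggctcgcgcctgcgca
Ebp (chrX:8193513-8193702, minus strand): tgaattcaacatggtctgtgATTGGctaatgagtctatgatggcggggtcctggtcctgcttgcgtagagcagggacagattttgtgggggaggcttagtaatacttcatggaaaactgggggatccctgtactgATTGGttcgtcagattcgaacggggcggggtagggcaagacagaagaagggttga
Srebf2 (chr15:82147114-82147268, plus strand): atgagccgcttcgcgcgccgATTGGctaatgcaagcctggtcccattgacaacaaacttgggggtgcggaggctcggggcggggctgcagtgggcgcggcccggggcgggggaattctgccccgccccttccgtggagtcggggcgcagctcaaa
Fasn (chr11:120824548-120824657, minus strand): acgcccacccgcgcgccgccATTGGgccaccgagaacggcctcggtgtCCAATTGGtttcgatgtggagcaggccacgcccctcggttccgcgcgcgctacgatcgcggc
Abca1 (chr4:53159896-53160065, minus strand): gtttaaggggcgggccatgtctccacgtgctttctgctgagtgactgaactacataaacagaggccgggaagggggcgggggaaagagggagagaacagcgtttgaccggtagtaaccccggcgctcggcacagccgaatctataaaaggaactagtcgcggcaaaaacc

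Motifs were searched on both strands from 250 bases before to 50 bases after the start, and 28 of the 35 members had such a window. The exceptions are Fdps, Fdft1, Sqle, Stard4, Abcg1, Scd1 and Scd2. A CCAAT box was present in 14 of 15 sterol enzyme genes (93.3%), against 41.1% of 27025 genes with a window and 43.6% of the 8898 of them that were tested here. The GC box GGGCGG was present in 14 of 15 as well, against 38.2% of all windows and 68.5% of those of tested genes. Among the 5 LXR and efflux genes with a window, CCAAT was found in 1, Mylip. Of the 4 fatty acid genes with a window, 2 had CCAAT and 1 had the GC box. Elovl6 and Acaca, which were lower in pulsed EKO-labelled cells, had neither box, while Mylip, which was higher, had both. Msmo1, Hsd17b7 and Idi1, whose differences between the lines did not pass the test, also had both. Whether the motifs go with the direction of the difference was not tested. TCACNCCAC was found without mismatch in 1 of 28 members, Hmgcs1, and in 1.44% of all windows and 1.3% of those of tested genes. With 1 mismatch allowed it matched 12 of 28 members (42.9%), against 26.7% of all windows and 29% of those of tested genes. A match describes the letters in the window and does not show that a factor binds there, and the windows of 7 members were not searched.

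Library totals lay between 27116201 and 39698572 counts, so that a limit of detection of 3 counts corresponds to 0.0785 to 0.110 CPM, that is, counts scaled to a common library size. Between the lines, 6619 tested genes (47.0%) in pulsed cells and 6537 (46.4%) in unpulsed cells passed an adjusted p of 0.05 and are called below. Siglece transcripts were no fewer in EKO cells. They measured 150.2 to 163 CPM in CtrV and 166 to 235 CPM in EKO libraries, with a log2 fold change of 0.31 (edgeR adjusted p = 0.011) in pulsed and 0.41 (edgeR adjusted p = 0.0026) in unpulsed cells. Small insertions and deletions need not remove a transcript, so counts over the whole gene do not check the editing. The paper reports little or no Siglec-E expression on the clones it pooled, which concerns the protein and not the RNA. The lines are called CtrV and EKO-labelled here, after the sample labels. EKO-labelled replicate 1 stood apart from replicates 2 and 3 of its group in both pulse conditions. The chi-square per degree of freedom over genes was 26.3 to 45.5 between it and the other replicates and 7.54 and 11.9 between replicates 2 and 3, against 4.88 to 25.5 between CtrV libraries of a group, so no library repeated another. The counts of members below are therefore also given without those libraries. All 11 dendritic cell markers passed the expression filter. They summed to 24211 to 26781 CPM in the 12 libraries, a total that does not show the level of each marker. Of the 11, 7 were called higher and 2 lower in pulsed EKO-labelled cells, with a median log2 fold change of 0.49, and 5 higher and 2 lower in unpulsed cells. The 7 macrophage markers summed to 1958 to 2206 CPM in pulsed CtrV and 2428 to 2662 CPM in pulsed EKO-labelled libraries, and 4 of the 7 were called higher there, Csf1r and Cd68 among them. In unpulsed cells the ranges were 1855 to 2143 CPM and 2462 to 2583 CPM, with 5 of 7 called higher. Among all tested genes 25.1% were called higher in pulsed and 24.5% in unpulsed cells, and 21.9% lower in each. The part of either marker list in the results below was not tested. All 17 markers of B cells, T cells and fibroblasts were below the filter. The highest group mean among them was 0.612 CPM (Cd8a), and 7 of them, with Cd3e, Trac, Col1a2 and Dcn, had no count in any library.

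In pulsed cells, genes of fatty acid synthesis and part of the sterol pathway were lower in the EKO-labelled line, and Ch25h, Mylip, Abca1 and Abcg1 of the LXR and efflux group were higher. Of the 34 tested members, 17 were called lower, against 21.9% of all tested genes, and 4 were called higher, against 25.1%. The other 13 did not pass the test. The median log2 fold change over the 34 members was -0.15, and that over all tested genes was 0.00. The libraries of the lines did not overlap for 10 members that were lower (25.9% of all tested genes) and 3 that were higher (27.0%). Without the replicate number in the model, 3 members were called higher and 9 lower, beside 2882 and 2531 of the 14079 tested genes. Without EKO-labelled replicate 1 in both pulse conditions, the counts were 4 higher and 15 lower, beside 3175 and 2816 tested genes. Since these are bulk libraries, fewer cells of a type and less RNA per cell cannot be told apart.

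**Figure D1:**
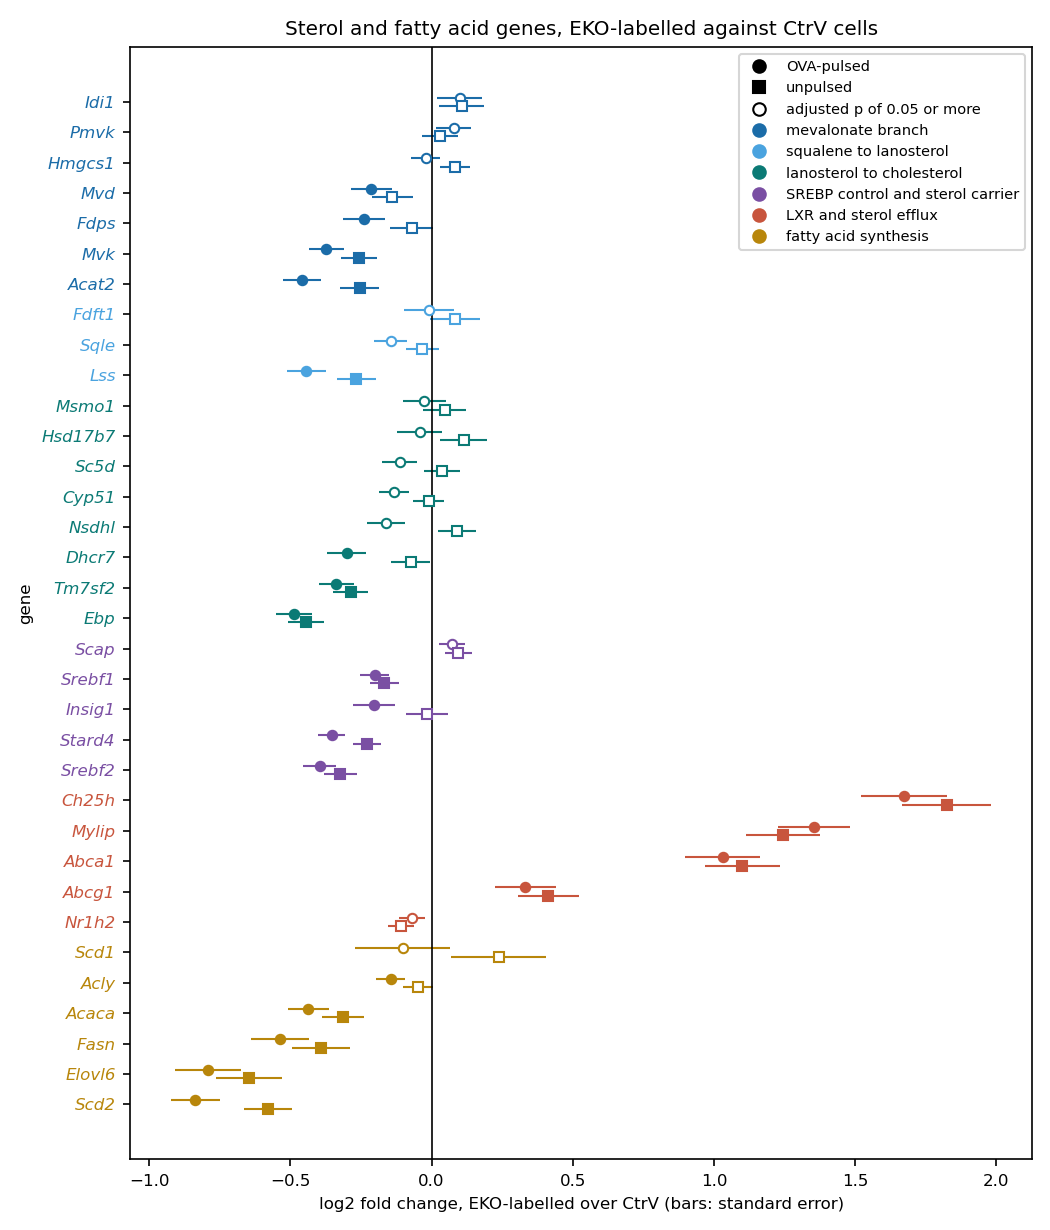
Log2 fold change of EKO-labelled over CtrV cells (horizontal axis) for the 34 tested members (vertical axis), grouped and coloured by role, with circles for pulsed and squares for unpulsed cells, bars for the standard error and open symbols where the adjusted p was 0.05 or more. The fatty acid genes Scd2 and Elovl6 lie farthest to the left, while Ch25h, Mylip and Abca1 lie above 1 in both pulse conditions.

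Genes of fatty acid synthesis showed the lowest values. Of the 6 members, 5 were called lower in pulsed EKO-labelled cells and none higher, with a median log2 fold change of -0.49. Among all tested genes 21.9% were called lower. Scd2 encodes a stearoyl-CoA desaturase, which places the first double bond in saturated fatty acids. Scd2 measured 1102, 784 and 990.0 CPM in the pulsed CtrV libraries 1, 2 and 3 and 642, 480.2 and 488 CPM in the pulsed EKO-labelled libraries. Every EKO-labelled library was below every CtrV library, with a log2 fold change of -0.84 (SE 0.086, edgeR adjusted p = 2.1e-05), or a level 0.56 times that of CtrV. Elovl6 extends palmitate to stearate. Elovl6 measured 60.1, 61.9 and 76.6 CPM in the pulsed CtrV libraries 1, 2 and 3 and 44.2, 36.3 and 34.9 CPM in the pulsed EKO-labelled libraries. The groups did not overlap, and the fit gave a log2 fold change of -0.79 (SE 0.12, edgeR adjusted p = 0.00027). Acaca encodes the carboxylase that makes malonyl-CoA. Acaca measured 102, 86.3 and 90.6 CPM in the pulsed CtrV libraries 1, 2 and 3 and 80.9, 60.8 and 65.7 CPM in the pulsed EKO-labelled libraries. The highest EKO-labelled library, replicate 1, stayed below the lowest CtrV library, replicate 2, and the fit gave a log2 fold change of -0.44 (SE 0.074, edgeR adjusted p = 7e-04).

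Fasn, the multifunctional synthase that assembles palmitate, was described in addition, chosen after its values were seen. Fasn measured 805, 680.0 and 685 CPM in the pulsed CtrV libraries 1, 2 and 3 and 643, 434 and 446 CPM in the pulsed EKO-labelled libraries. All EKO-labelled libraries were lower than all CtrV libraries, yet replicate 1 was the highest of its group in both lines. The log2 fold change was -0.54 (SE 0.10) with an edgeR adjusted p of 0.0016, and 0.097 without the replicate block. Acly, which supplies cytosolic acetyl-CoA from citrate, had a log2 fold change of -0.14 (SE 0.052, edgeR adjusted p = 0.041, 0.41 without the replicate block). That call was lost on leaving out any of 5 of the 6 compared libraries, with adjusted p between 0.061 without EKO-labelled replicate 1 and 0.2 without CtrV replicate 3. The losses also occurred without CtrV replicate 2 (0.1), EKO-labelled replicate 2 (0.093) and EKO-labelled replicate 3 (0.12).

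Scd1 was the fatty acid gene that did not pass the test. It lies on the same chromosome as Scd2 (chromosome 19, 44394455 to 44407879, minus strand, against chromosome 19, 44293674 to 44306864, plus strand, GRCm38). Both encode desaturases of the same family, so reads of shared sequence could be assigned to either. Scd1 measured 132, 74.9 and 120.0 CPM in the pulsed CtrV libraries 1, 2 and 3 and 104, 89.3 and 103 CPM in the pulsed EKO-labelled libraries. The CtrV libraries spanned the EKO-labelled ones, and the log2 fold change was -0.10 (SE 0.17, edgeR adjusted p = 0.64). The 6 genes summed to 2334 ± 286 CPM (SD, n = 3) in the pulsed CtrV group and to 1600.1 ± 277 CPM (SD, n = 3) in the pulsed EKO-labelled group, a ratio of 0.685. Per kilobase of exon, Scd2 was at 175 CPM in pulsed CtrV cells, the highest of the 35 genes, and at 98.3 CPM in pulsed EKO-labelled cells.

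In the mevalonate branch 4 of 7 genes were called lower in pulsed EKO-labelled cells and none higher, with a median log2 fold change of -0.21. The share of all tested genes called lower was 21.9%. The libraries of the lines did not overlap for 0 of the 7, and 1 was called lower without the replicate block. Acat2 encodes the cytosolic thiolase that joins acetyl-CoA units. Acat2 measured 93.3, 69.2 and 88.2 CPM in the pulsed CtrV libraries 1, 2 and 3 and 75.7, 51.7 and 56.2 CPM in the pulsed EKO-labelled libraries. Replicate 1 was highest in both lines, and the EKO-labelled replicate 1 lay above CtrV replicate 2, so that the groups overlapped. Within each replicate number the EKO-labelled library was the lower one, and the fit gave a log2 fold change of -0.46 (SE 0.068, edgeR adjusted p = 3e-04, 0.086 without the replicate block). Mvk phosphorylates mevalonate. Mvk measured 49.3, 39.4 and 47.8 CPM in the pulsed CtrV libraries 1, 2 and 3 and 40.2, 31.7 and 33.4 CPM in the pulsed EKO-labelled libraries. The groups overlapped in the same way through replicate 1 of EKO-labelled and replicate 2 of CtrV cells, and the fit gave a log2 fold change of -0.37 (SE 0.062, edgeR adjusted p = 0.00063). Fdps joins isoprene units into farnesyl diphosphate. Fdps measured 202, 174 and 216 CPM in the pulsed CtrV libraries 1, 2 and 3 and 176, 158 and 166 CPM in the pulsed EKO-labelled libraries. The EKO-labelled replicate 1 lay above CtrV replicate 2, and the fit gave a log2 fold change of -0.24 (SE 0.075, edgeR adjusted p = 0.023, 0.1 without the replicate block).

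The call of Fdps was lost without CtrV replicate 3 (edgeR adjusted p = 0.11), EKO-labelled replicate 1 (0.059) or EKO-labelled replicate 3 (0.12), and 26.7% of its exon bases are shared with another gene on the same strand. Mvd, which decarboxylates mevalonate diphosphate, had a log2 fold change of -0.21 (SE 0.072, edgeR adjusted p = 0.032, 0.43 without the replicate block). Leaving out CtrV replicate 2 or 3 or EKO-labelled replicate 2 or 3 ended that call as well, with adjusted p of 0.1, 0.14, 0.083 and 0.14. Hmgcs1, the HMG-CoA synthase whose promoter is printed above, measured 314, 239 and 258 CPM in pulsed CtrV and 329, 243 and 231 CPM in pulsed EKO-labelled libraries. The lines overlapped, and its log2 fold change was -0.02 (SE 0.052, edgeR adjusted p = 0.76). The kinase Pmvk and the isomerase Idi1 did not pass either, with log2 fold changes of 0.08 (SE 0.063) and 0.10 (SE 0.080). The branch summed to 812 ± 101.1 CPM (SD, n = 3) in the CtrV group and to 746 ± 112 CPM (SD, n = 3) in the EKO-labelled group. The groups overlapped, while within each replicate number the EKO-labelled sum was the lower one, with 875 against 904 CPM for replicate 1, 679 against 704 CPM for replicate 2 and 684 against 830 CPM for replicate 3.

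Between squalene and lanosterol, 1 of 3 genes was called lower, against 21.9% of all tested genes. Lss closes squalene epoxide into lanosterol. Lss measured 102, 75.8 and 92.1 CPM in the pulsed CtrV libraries 1, 2 and 3 and 84.4, 55.7 and 60.3 CPM in the pulsed EKO-labelled libraries. Replicate 1 was highest in each line and EKO-labelled replicate 1 lay above CtrV replicate 2, while each EKO-labelled library was below the CtrV library of the same number. The fit gave a log2 fold change of -0.44 (SE 0.068, edgeR adjusted p = 0.00035, 0.098 without the replicate block). Sqle, the squalene epoxidase that is a rate-limiting step of the pathway, measured 216, 204 and 213 CPM in pulsed CtrV and 193, 197 and 182 CPM in pulsed EKO-labelled libraries. These groups did not overlap, but the difference was small and did not pass, with a log2 fold change of -0.14 (SE 0.058, edgeR adjusted p = 0.061). Fdft1, the squalene synthase, measured 47.1, 36.9 and 45.2 CPM and 54.1, 36.8 and 38.2 CPM. The EKO-labelled libraries spanned the CtrV ones, and the log2 fold change was -0.01 (SE 0.087, edgeR adjusted p = 0.94). Without EKO-labelled replicate 2 the adjusted p of Sqle was 0.011.

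From lanosterol to cholesterol 3 of 8 genes were called lower (37.5%, against 21.9% of all tested genes) and none higher. The median log2 fold change was -0.15. Ebp shifts a double bond in the sterol ring. Ebp measured 67.0, 65.3 and 69.7 CPM in the pulsed CtrV libraries 1, 2 and 3 and 47.0, 49.3 and 47.8 CPM in the pulsed EKO-labelled libraries. The EKO-labelled libraries lay close together and below all CtrV libraries, and the fit gave a log2 fold change of -0.49 (SE 0.064, edgeR adjusted p = 0.00012). Tm7sf2 is a sterol reductase that acts after the demethylation of lanosterol. Tm7sf2 measured 22.7, 22.3 and 23.7 CPM in the pulsed CtrV libraries 1, 2 and 3 and 19.1, 17.1 and 18.3 CPM in the pulsed EKO-labelled libraries. The groups did not overlap, with a log2 fold change of -0.34 (SE 0.061, edgeR adjusted p = 0.0011), and 12.1% of its exon bases are shared with another gene on the same strand. Dhcr7 catalyses the last reduction to cholesterol in one branch of the pathway. Dhcr7 measured 80.1, 63.7 and 72.7 CPM in the pulsed CtrV libraries 1, 2 and 3 and 67.3, 55.4 and 53.2 CPM in the pulsed EKO-labelled libraries. EKO-labelled replicate 1 lay above CtrV replicate 2, and the fit gave a log2 fold change of -0.30 (SE 0.069, edgeR adjusted p = 0.0046, 0.12 without the replicate block).

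The other genes of this segment did not pass the test in pulsed cells. They are the demethylase Cyp51, the oxidase Msmo1, the dehydrogenase Nsdhl, the ketoreductase Hsd17b7 and the desaturase Sc5d, and their log2 fold changes ran from -0.16 (Nsdhl, SE 0.067) to -0.03 (Msmo1, SE 0.076). Cyp51 (-0.13, SE 0.054) and Nsdhl came closest, with edgeR adjusted p of 0.065 and 0.074. Leaving out EKO-labelled replicate 2 brought both past the threshold (0.03 and 0.042), and leaving out CtrV replicate 2 did so for Nsdhl (0.043). Over the 18 enzymes from Acat2 to Dhcr7, 8 were called lower (44.4%) and none higher. Among all tested genes 21.9% were called lower and 47.0% in either direction. A negative log2 fold change was found for 16 of the 18. The libraries of the lines did not overlap for 3 that were lower, against 25.9% of all tested genes. Without the replicate block 3 of the 18 were called lower, Mvk, Ebp and Tm7sf2, beside 2531 of all 14079 tested genes.

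**Figure D2:**
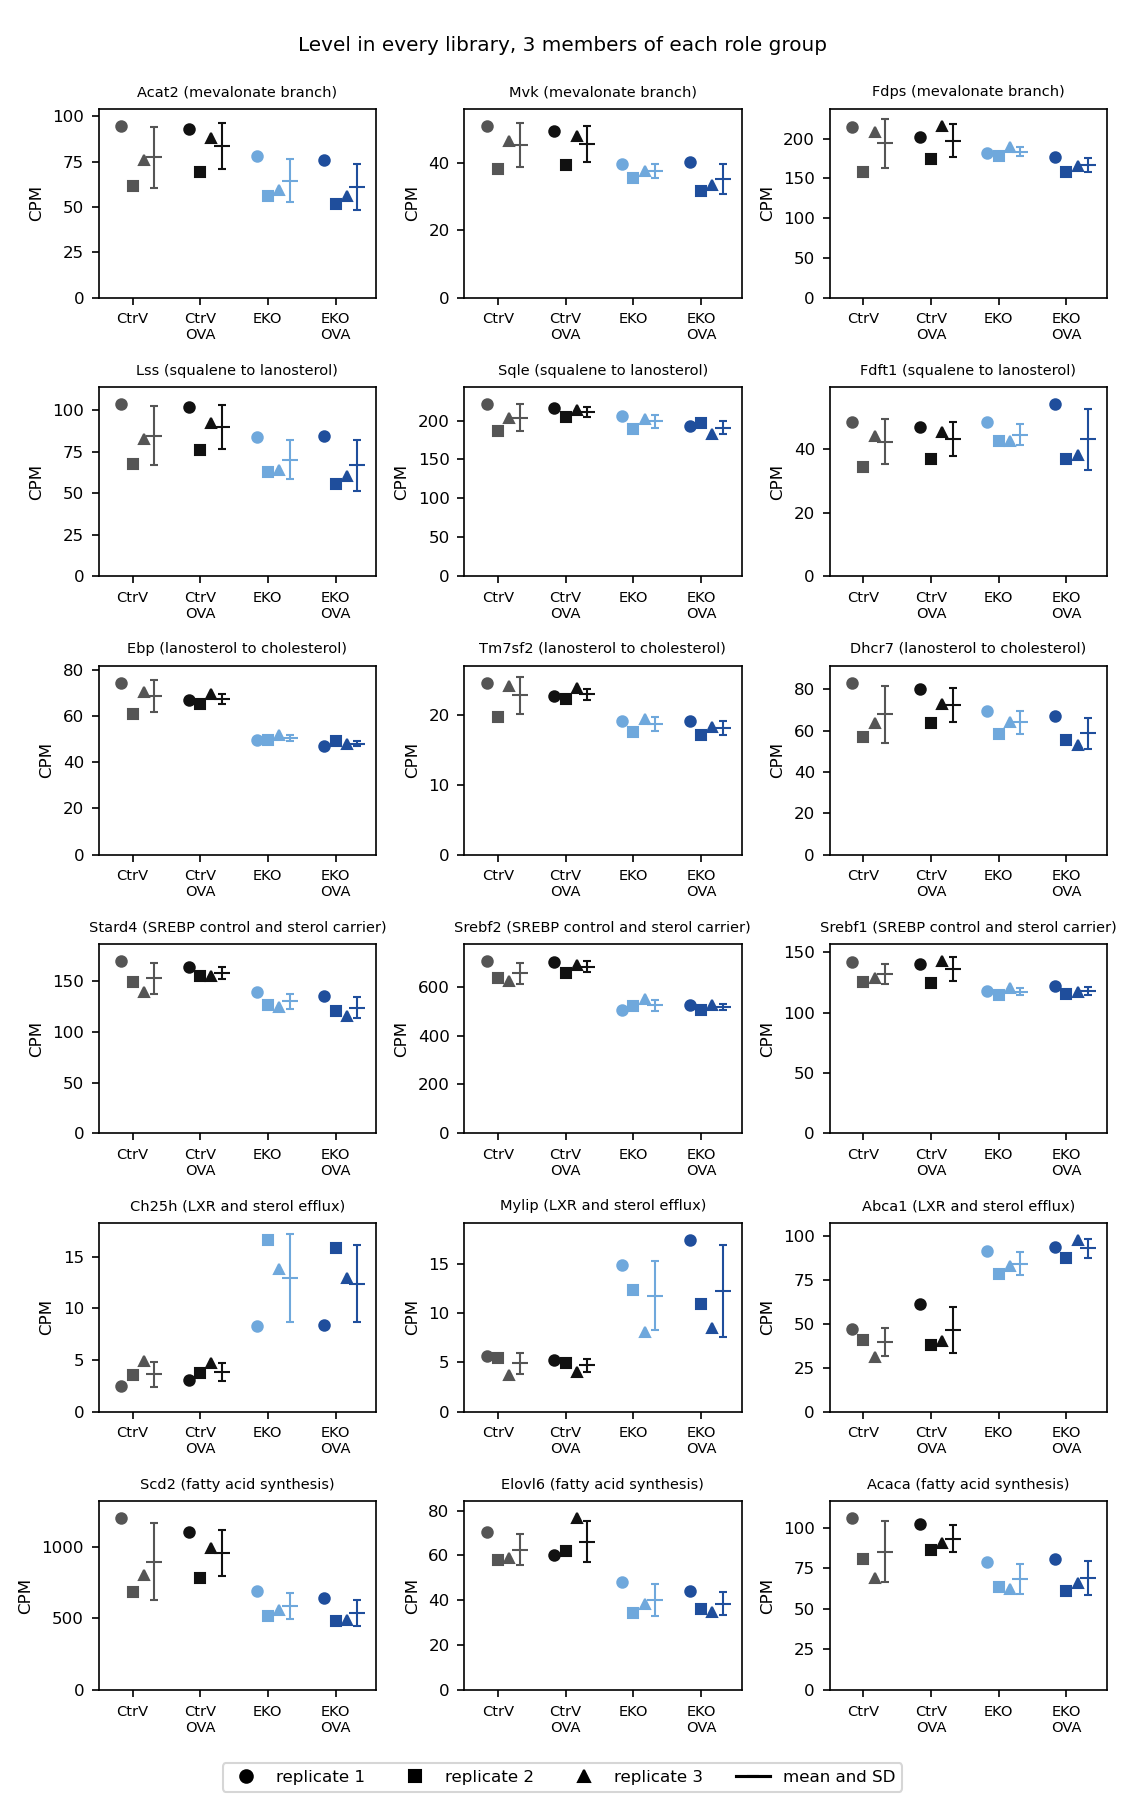
Normalised level in CPM (vertical axis, from 0) in every library for 3 members of each role group, with circles, squares and triangles for replicates 1, 2 and 3, a bar for the mean and SD of the 3 libraries, and one column for each of unpulsed CtrV, pulsed CtrV, unpulsed EKO-labelled and pulsed EKO-labelled cells. Replicate 1 is the highest library of all 4 groups for Acat2, Lss, Dhcr7 and Scd2, and for Ebp and Srebf2 the 2 lines separate with little spread within pulsed groups.

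Of the genes that control the SREBP pathway or carry sterol, 4 of 5 were called lower in pulsed EKO-labelled cells and none higher. The share called lower among all tested genes was 21.9%. Srebf2 encodes the factor that mainly drives sterol genes. Srebf2 measured 704, 658 and 691 CPM in the pulsed CtrV libraries 1, 2 and 3 and 525, 506 and 528 CPM in the pulsed EKO-labelled libraries. The lines did not overlap, with a log2 fold change of -0.40 (SE 0.057, edgeR adjusted p = 0.00024). Srebf1 encodes the factor that mainly drives fatty acid genes, and these counts do not separate its isoforms. Srebf1 measured 140.5, 124 and 143 CPM in the pulsed CtrV libraries 1, 2 and 3 and 122, 115 and 117 CPM in the pulsed EKO-labelled libraries. The groups did not overlap, with a log2 fold change of -0.20 (SE 0.052, edgeR adjusted p = 0.0083), and without CtrV replicate 3 the adjusted p was 0.054. Stard4 carries sterol between membranes. Stard4 measured 165, 155 and 156 CPM in the pulsed CtrV libraries 1, 2 and 3 and 136, 121 and 116 CPM in the pulsed EKO-labelled libraries. All EKO-labelled libraries were below all CtrV libraries, with a log2 fold change of -0.35 (SE 0.048, edgeR adjusted p = 0.00016).

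Insig1, which retains the SREBP escort complex and is itself a target of SREBP, had a log2 fold change of -0.20 (SE 0.074, edgeR adjusted p = 0.044, 0.095 without the replicate block). It was not called without CtrV replicate 1 (0.064), CtrV replicate 3 (0.21), EKO-labelled replicate 1 (0.13) or EKO-labelled replicate 3 (0.2). The escort Scap did not pass, with a log2 fold change of 0.07 (SE 0.046) and libraries at 65.3 to 69.1 CPM in CtrV and 68.8 to 72.4 CPM in EKO-labelled cells. The 5 genes summed to 1230.2 ± 55.3 CPM (SD, n = 3) in the CtrV group and to 992 ± 26.0 CPM (SD, n = 3) in the EKO-labelled group, a ratio of 0.807. Srebf2 made up most of that sum, and per kilobase of exon it was at 95.3 CPM in CtrV cells against 24.1 CPM for Srebf1.

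The LXR and sterol efflux group differed in the other direction, with 4 of 5 tested genes called higher in pulsed EKO-labelled cells and none lower. The share called higher among all tested genes was 25.1%. The median log2 fold change of the group was 1.03. Ch25h adds a hydroxyl group to the side chain of cholesterol and makes an oxysterol with antiviral activity. Ch25h measured 3.05, 3.72 and 4.74 CPM in the pulsed CtrV libraries 1, 2 and 3 and 8.39, 15.9 and 12.98 CPM in the pulsed EKO-labelled libraries. Every EKO-labelled library was above every CtrV library, with a log2 fold change of 1.67 (SE 0.15, edgeR adjusted p = 8.5e-06), or 3.19 times the level of CtrV. Mylip is a ubiquitin ligase that sends lipoprotein receptors to degradation and is a known LXR target. Mylip measured 5.27, 4.92 and 3.98 CPM in the pulsed CtrV libraries 1, 2 and 3 and 17.5, 10.9 and 8.46 CPM in the pulsed EKO-labelled libraries. The groups did not overlap, with a log2 fold change of 1.35 (SE 0.13, edgeR adjusted p = 1.1e-05). Abca1 exports cholesterol to lipid-poor apolipoprotein. Abca1 measured 61.3, 37.9 and 40.1 CPM in the pulsed CtrV libraries 1, 2 and 3 and 93.9, 87.4 and 98.0 CPM in the pulsed EKO-labelled libraries. The lowest EKO-labelled library was above the highest CtrV library, replicate 1, with a log2 fold change of 1.03 (SE 0.13, edgeR adjusted p = 0.00011).

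Abcg1, the exporter to lipoprotein particles, measured 90.6, 53.9 and 62.6 CPM in pulsed CtrV and 96.4, 66.2 and 96.5 CPM in pulsed EKO-labelled libraries. The groups overlapped, since CtrV replicate 1 was above EKO-labelled replicate 2, and the fit gave a log2 fold change of 0.33 (SE 0.11, edgeR adjusted p = 0.028, 0.22 without the replicate block). Without CtrV replicate 2 or 3 or EKO-labelled replicate 1 or 3, the adjusted p of Abcg1 was 0.13, 0.14, 0.05 and 0.14, and the call was lost. The receptor genes themselves were not called. Nr1h2, which encodes LXR-beta, lay at 56.2 to 61.4 CPM in CtrV and 53.3 to 58.7 CPM in EKO-labelled libraries (log2 fold change -0.07, SE 0.046). Nr1h3, which encodes LXR-alpha, had 2 to 10 counts in each of the 12 libraries, at or near the limit of 3 counts, and was not tested. The levels of Ch25h and Mylip were low, at 8.95 and 3.8 CPM per kilobase of exon in pulsed EKO-labelled cells, and 11.5% of the exon bases of Ch25h are overlapped by a gene on the opposite strand, with the use of strand in counting not stated. Macrophage markers were also higher in EKO-labelled cells, as given above, and their part in this group was not tested.

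The comparison of unpulsed cells asks whether the lines already differed without antigen. There 12 members were called lower, against 21.9% of all tested genes, and 4 were called higher, against 24.5%, while 18 did not pass. The libraries of the lines did not overlap for 7 members that were lower (22.9% of all tested genes) and 4 that were higher (24.1%). The median over the 34 members was -0.04, and it was 0.01 when the libraries numbered 1 were left out of all groups. Without EKO-labelled replicate 1 in both pulse conditions, 5 members were called higher and 11 lower, beside 3204 and 3019 of the 14079 tested genes. All 4 genes called higher, Ch25h, Mylip, Abca1 and Abcg1, and all 12 called lower were called in the same direction in pulsed cells too. This overlap was not counted over all tested genes, so it is not shown to be particular to the members.

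Ch25h was at 2.47, 3.51 and 4.88 CPM in unpulsed CtrV and 8.25, 16.7 and 13.9 CPM in unpulsed EKO-labelled libraries. Mylip was at 5.68, 5.41 and 3.71 CPM and 15.0, 12.4 and 8.07 CPM in the same libraries. Abca1 was at 47.2, 40.8 and 31.0 CPM and 91.5, 78.6 and 83.2 CPM. The libraries of the lines did not overlap for any of the 3 genes, and their log2 fold changes were 1.82 (SE 0.16), 1.24 (SE 0.13) and 1.10 (SE 0.13), with edgeR adjusted p of 6.5e-06, 2.6e-05 and 7.8e-05. Abcg1 had a log2 fold change of 0.41 (SE 0.11, edgeR adjusted p = 0.01), and an adjusted p of 0.057 without EKO-labelled replicate 2.

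Among the genes that were lower, Elovl6 (-0.65, SE 0.12), Scd2 (-0.58, SE 0.086), Ebp (-0.44, SE 0.064) and Fasn (-0.39, SE 0.10) had the largest log2 differences in unpulsed cells. Scd2 measured 1201, 683 and 806 CPM in unpulsed CtrV and 690.0, 517 and 562 CPM in unpulsed EKO-labelled libraries. EKO-labelled replicate 1 was just above CtrV replicate 2, so the groups overlapped, unlike in pulsed cells. Srebf2 measured 707, 639 and 626 CPM and 504, 522 and 550.2 CPM and did not overlap, with a log2 fold change of -0.32 (SE 0.057, edgeR adjusted p = 0.001). The other genes called lower were Acaca (-0.31), Tm7sf2 (-0.29), Lss (-0.27), Mvk (-0.26), Acat2 (-0.25), Stard4 (-0.23) and Srebf1 (-0.17). Of the 18 sterol enzymes 5 were called lower (27.8%), near the 21.9% of all tested genes, and none higher. Their median log2 fold change was -0.02, with 10 negative and 8 positive. The libraries of the lines did not overlap for 2 that were lower, against 22.9% of all tested genes.

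Several of these calls depended on single libraries. Fasn was not called without CtrV replicate 2 (edgeR adjusted p = 0.052) or EKO-labelled replicate 2 (0.053), and Acat2 was not called without EKO-labelled replicate 3 (0.063). Srebf1 was not called without CtrV replicate 1 (0.1) or 2 (0.051) or EKO-labelled replicate 1 (0.088) or 3 (0.05). Mvk was not called with the libraries numbered 1 left out of all groups (0.054). Scd1 measured 144, 64.7 and 89.5 CPM in unpulsed CtrV and 111, 98.2 and 129 CPM in unpulsed EKO-labelled libraries and was not called (0.24, SE 0.17). CtrV replicate 1 was the highest of these 6 libraries, and with it left out Scd1 was higher in EKO-labelled cells, with an edgeR adjusted p of 0.01. Scd1 was also called higher without EKO-labelled replicate 1 in both pulse conditions, and with the libraries numbered 1 left out of all groups. Without CtrV replicate 1 Nr1h2 passed as lower (0.039).

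Whether the line difference depended on the pulse was tested as an interaction in the same fit. No gene passed (0.00% of all tested genes), with 269 genes and 2 members at an unadjusted p under 0.05, and DESeq2 and limma voom called none, with 103 and 297 genes under that value. The members with a p under 0.05 were Nsdhl, at a log2 difference of -0.25 (SE 0.10, adjusted p = 1), and Dhcr7, at -0.23 (SE 0.10, adjusted p = 1). The interaction was negative for 31 of the 34 members, with a median of -0.11 against 0.00 over all tested genes. The members were measured in the same libraries and move together between them, so these are not separate observations. Leaving out single libraries moved that median between -0.14 and -0.07, the latter without pulsed CtrV replicate 3.

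Pulsing itself was compared within each line. Between OVA-pulsed and unpulsed CtrV cells no gene was called (0.00%). An unadjusted p under 0.05 was reached by 231 genes and 0 members in edgeR and by 44 genes in DESeq2. The median log2 fold change of the members was 0.07, ranging from -0.06 to 0.22, and the libraries of the pulse groups did not overlap for 0 members, against 1.98% (higher) and 2.39% (lower) of tested genes. In EKO-labelled cells pulsing also gave no call (0.00%), with 394 genes and 1 member, Nsdhl, under that unadjusted p in edgeR and 156 genes in DESeq2. The members' median there was -0.05. The libraries of the pulse groups did not overlap for 0 members that were higher (2.34% of tested genes) and 4 that were lower (2.56%), namely Fdps, Insig1, Msmo1 and Ebp, with log2 fold changes of -0.14 (SE 0.075), -0.12 (SE 0.074), -0.07 (SE 0.076) and -0.07 (SE 0.064). These comparisons share the pulsed and unpulsed groups with the line comparisons above and are not independent of them.

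**Figure D3:**
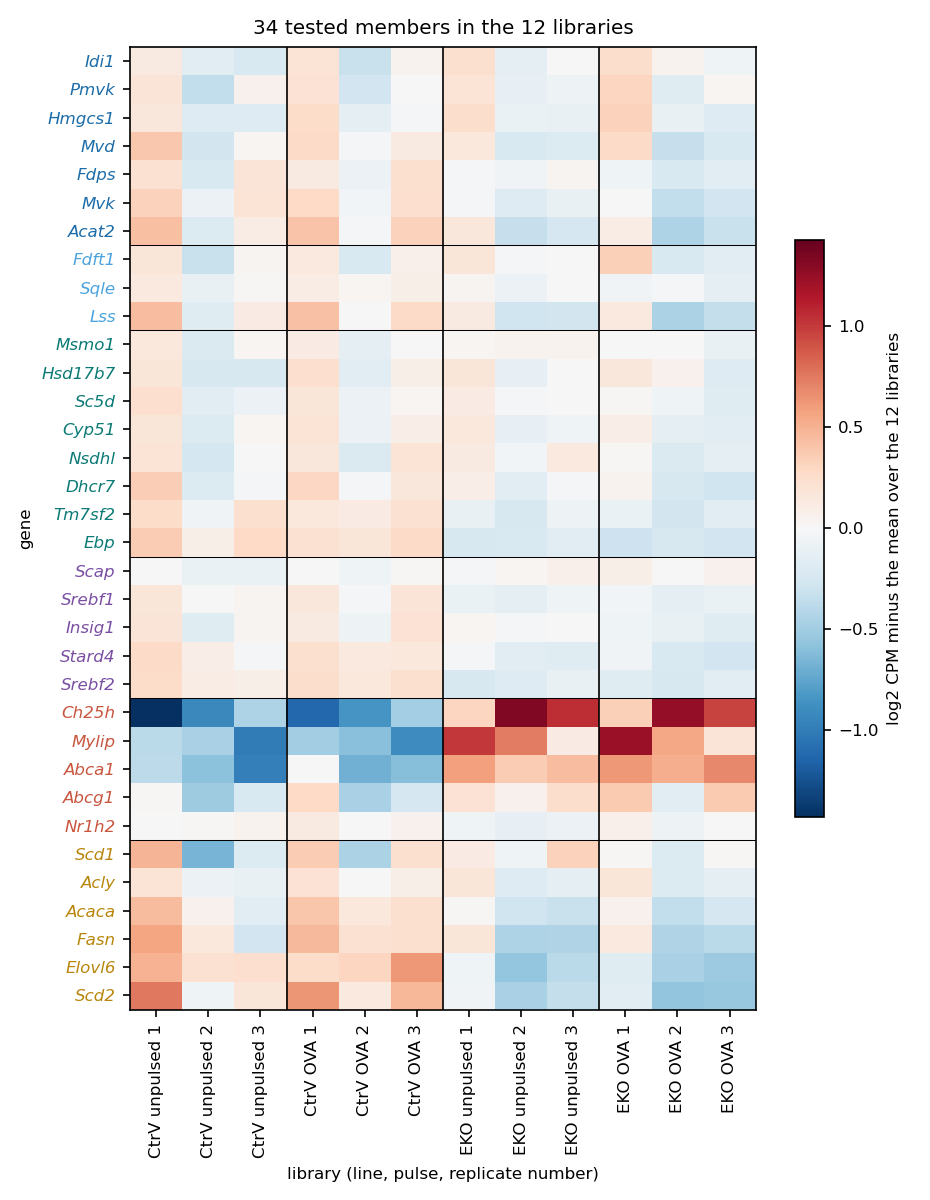
Log2 CPM of the 34 tested members (rows, by role) minus each gene's mean over the 12 libraries (columns, grouped by line and pulse, numbered by replicate), red above and blue below that mean. The block of Ch25h, Mylip and Abca1 is blue in CtrV and red in EKO-labelled libraries, apart from Abca1 in pulsed CtrV replicate 1, which lies near the mean, and for 12 of the 18 sterol enzymes replicate 1 is the reddest or least blue column in all 4 groups.

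Replicate number went with the level of these genes in both lines. A test of the replicate term in the fit, added after the values were seen, called 21 of the 34 members, against 10.0% of all tested genes. Replicate 1 was the highest library of its group in all 4 groups for 18 of the 34 members, against 6.63% of tested genes. Over the 34 members, replicate 2 was lower than replicate 1 by a median log2 difference of -0.30 and replicate 3 by -0.19, while the medians over all tested genes were 0.00 and 0.01. Of the 18 sterol enzymes 13 were called and 12 were highest in replicate 1 throughout, and of the 6 fatty acid genes 4 were called. Hmgcs1, which was not called between the lines, had the smallest p of the members, with log2 differences of -0.38 and -0.38 for replicates 2 and 3 against 1 (edgeR adjusted p = 0.0011). Fasn differed by -0.46 and -0.55 (edgeR adjusted p = 0.0072). Ch25h went the other way, at 0.76 and 0.73 (edgeR adjusted p = 0.01), and replicate 1 was its lowest library in every group. Ebp (-0.06 and 0.02) and Srebf2 (-0.06 and -0.02) did not pass. The labels do not say what a replicate number stands for, so a day, passage or culture batch behind it cannot be told apart from other sources.

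**Figure D4:**
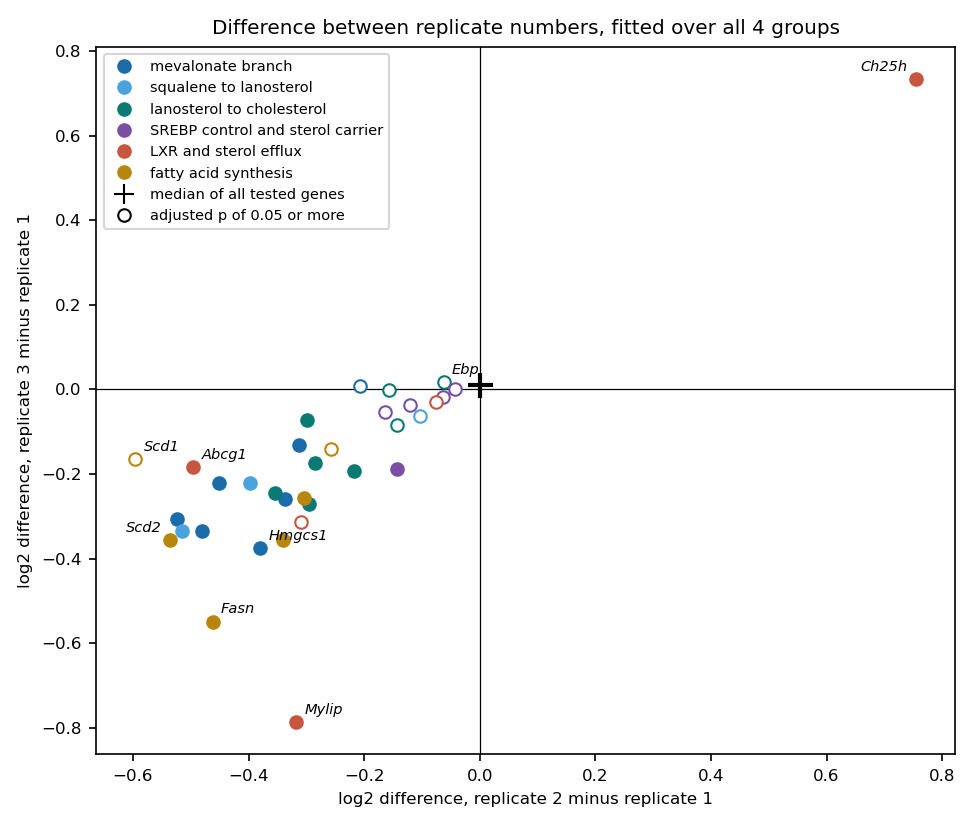
Log2 difference of replicate 2 (horizontal axis) and replicate 3 (vertical axis) from replicate 1, fitted over all 4 groups, for the 34 tested members coloured by role, with open symbols where the adjusted p was 0.05 or more and a cross at the median of all tested genes. Most sterol and fatty acid genes lie below and to the left of the cross, and Ch25h lies alone at the upper right.

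Other genes of the same pathways were taken from 5 further lists of 63 genes, 55 of them tested. In pulsed cells 11 were called higher and 17 lower, and their median log2 fold change was -0.04. That is 50.9% of the 55, near the 47.0% of all tested genes. In the list of further sterol enzymes 1 of 5 was higher and 3 were lower. No gene of the 7 that process or degrade SREBP and its partners was called. Of 16 genes of sterol storage and traffic 5 were higher and 6 lower, and of 7 LXR partners and targets 2 were higher and 1 was lower. Of 20 genes of fatty acid supply and elongation 3 were higher and 7 lower. The largest rises among those called were in Elovl7, a fatty acid elongase (2.35, SE 0.14), Gramd1a, a sterol transfer protein (1.06, SE 0.087), and Hacd3, a dehydratase of chain elongation (0.93, SE 0.12). The largest falls were in Cyp27a1, a sterol hydroxylase of mitochondria (-1.28, SE 0.16), and Scd4, a further stearoyl-CoA desaturase (-1.20, SE 0.20). Elovl7 measured 1.3, 1.24 and 0.862 CPM in pulsed CtrV and 6.12, 6.95 and 4.49 CPM in pulsed EKO-labelled libraries, opposite in direction to Elovl6. The libraries of the lines did not overlap for Elovl7. In unpulsed cells 11 genes of these lists were higher and 14 lower, or 45.5% called against 46.4% of all tested genes.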

How the data were processed

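Raw counts per gene of 12 libraries were used, in which the authors deposited 1 column per library. According to the methods the authors aligned reads to mm10 with STAR and counted them over exons with featureCounts and an Ensembl annotation, and the processing notes also name SAMtools. Whether strand was used in counting is not given in the sources used here. The labels name the groups and replicate numbers but not whether replicates are separate cultures, so p-values measure the spread between these libraries, which may be technical.

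Symbols came from an Ensembl gene table, which gave one to 14056 of 14079 tested genes, exon lengths and positions from a GENCODE annotation of GRCm38, and promoters from RefSeq. Comparisons were fitted in edgeR 4.0.16 (R 4.3.3) after TMM scaling and a filter of log2 CPM above 0 in at least 2 libraries. Group and replicate number were the terms of a quasi-likelihood model of the 12 libraries, and p-values were adjusted by Benjamini-Hochberg across the whole tested table. A gene was called at an adjusted p under 0.05, with no limit on fold change. CPM are counts scaled to a common library size with TMM factors, and SE is the standard error of the log2 fold change. Only the edgeR fit was tried on simulated counts, in which far fewer genes differed between the lines and no replicate effect was added. The other steps were not tested in this way.

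Deviations of libraries with the same replicate number correlated between the pulsed lines (0.450, 0.295 and 0.298 for replicates 1, 2 and 3), so the numbers pair these libraries. Between the unpulsed lines the correlations were 0.066, -0.009 and 0.271. Alternatives were DESeq2 1.42.0, limma 3.58.1 (voom), RLE, upper-quartile and no normalization beyond library totals, other filters and thresholds, the 6 compared libraries alone, no replicate block, and leaving out each library. Leaving out the libraries numbered 1 and the test of the replicate term were added after seeing the data. In each of the 6 role groups the 3 members with the smallest p in pulsed cells are given in every library, and of the further genes the 3 largest rises and falls, apart from 1 that is not reported here. The members, lists and rules were chosen with earlier results of these data known.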

Additional observations from a re-analysis of the deposited data

Results flagged for a closer look

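Cyp51, the lanosterol demethylase, was flagged by the direction of its pairs. All 3 pulsed CtrV libraries were above the unpulsed CtrV library of the same number, while all 3 pulsed EKO-labelled libraries were below theirs. How many of all tested genes meet this rule was not counted. The difference between the lines changed by -0.12 on the log2 scale with pulsing. In the fit over all 12 libraries this interaction did not pass (edgeR adjusted p = 1).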

How the results depend on the processing

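Without the replicate block 12 members were called in pulsed cells (3 higher, 9 lower) and 9 in unpulsed cells (3 higher, 6 lower), instead of 21 and 16. Over all 14079 tested genes, 5413 (2882 higher, 2531 lower) and 5337 (2820 higher, 2517 lower) were then called, instead of 6619 and 6537. In unpulsed cells, the calls of Acat2, Mvk, Lss, Srebf1, Abcg1, Acaca and Fasn were the 7 lost without the block. Same-numbered unpulsed libraries correlated at 0.066 and -0.009 for replicates 1 and 2, and at 0.271 for replicate 3. Asking for an absolute log2 difference of at least 1 left 3 members in each comparison, and 1268 and 1241 genes. Leaving out each library gave 15 to 22 members (pulsed) and 14 to 17 members (unpulsed), and 5177 to 5976 and 5389 to 6090 genes. The lowest count of members in pulsed cells came without CtrV replicate 3. Comparisons of pulsed with unpulsed cells and the interaction gave 0 genes in every setting. DESeq2, limma voom and RLE normalization gave the 34 members the same calls in both comparisons. With library totals alone 25 and 18 members were called, and the split of all genes turned from 3531 higher and 3088 lower to 2862 and 4148 in pulsed cells, and from 3448 and 3089 to 2781 and 4066 in unpulsed cells. Upper-quartile normalization gave 3103 and 3696, and 2910 and 3864. These scalings moved the median of all genes by at most -0.06, and the summed SREBP control genes from a ratio of 0.807 to 0.773 in pulsed cells with library totals. A sterol regulatory element with 1 mismatch was found in 12 members instead of 1. With the libraries numbered 1 left out of all 4 groups, 20 members were called in pulsed and 15 in unpulsed cells. Among all tested genes the counts were then 5924 and 5867. No called member changed direction in any setting. Depth limits only Nr1h3 among the members, at 2 to 10 counts.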
